A study of Mus musculus with 6 samples.

Results

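Of the 55487 genes in the deposited tables, 10 are described here: the transcription factor genes Atf4, Atf5 and Ddit3, the feedback and target genes Trib3 and Chac1, the mTORC1 inhibitor genes Ddit4 and Sesn2, and the amino acid synthesis genes Asns, Psat1 and Phgdh. They were chosen by name, as genes of the integrated stress response and of serine synthesis. Of the 10, 9 passed the filter on low counts and were among the 14286 genes tested, and Phgdh did not pass. The RNA came from livers of male C57/Bl6J mice on a high-fat diet (HFD), in 3 control and 3 mutant libraries.

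By the genotype labels both groups carried Alb cre +/-, a Cre recombinase driven by the hepatocyte-active albumin promoter, and the mutants carried in addition RXRa f/f. The titles instead call the controls WT and the mutants Cre, and the design text names an Rxra S65A mutant, so the labels do not say in 1 form which allele the mutant livers express. Ages and the length of the diet were not given in the sources used here. Rxra, the gene of the nuclear receptor RXRα, was still counted in the mutants, at 501, 471 and 414 CPM (counts scaled to library size, here with TMM factors) in control replicates 1, 2 and 3, against 700, 522 and 609 CPM in the mutants. Its log2 fold change of 0.40 ± 0.13 (SE) did not pass the edgeR test (adjusted p = 0.0724) but passed with DESeq2 (0.0292), with no filter on low counts (0.0356) and without mutant replicate 2 (0.0388). It was 0.0073 at library totals and -0.20 in a limma fit on TPM (abundance scaled for gene length and library size). Gene-level counts do not check either allele.

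Cells that lack amino acids, fold proteins poorly in the endoplasmic reticulum or meet other stresses phosphorylate the translation factor eIF2. General protein synthesis then falls, while the mRNA of ATF4 is translated more, and ATF4 switches on genes for amino acid synthesis and uptake. Because ATF4 is set largely at translation and by protein stability, its mRNA level is not a measure of its activity. In liver the pathway answers to dietary protein, mitochondrial faults and endoplasmic reticulum stress. Serine synthesis, which branches from glycolysis and feeds glycine and folate one-carbon units, is among the pathways that ATF4 can induce.

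ATF4 binds DNA together with C/EBP factors at a composite site whose core can be written TGATGNAA. Promoter windows of 300 bases, 250 before and 50 after each RefSeq start (RefSeq, GRCm38.p6, the assembly of mm10), were searched for this core on both strands. It was present in windows of 3 of the 10 genes (12 windows in all), against 3.97% of all 32851 windows and 4.51% of all 27025 genes with a window. The 3 matches are shown because they set Asns, the gene that rose, beside a pair of genes with the same core that did not pass the test. Each line gives 30 bases 5′ to 3′ along the gene's strand, with the match in capitals.
Asns, chr6:7693214-7693243, minus strand: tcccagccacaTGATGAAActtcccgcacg
Chac1, chr2:119351038-119351067, plus strand: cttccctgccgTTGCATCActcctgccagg
Trib3, chr2:152344028-152344057, minus strand: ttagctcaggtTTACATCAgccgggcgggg
The Asns match reads along the gene's strand and lies from -23 to -16 relative to the RefSeq start. In Chac1 the core is on the opposite strand, from -193 to -186, and in Trib3 it is on the opposite strand, from 14 to 21 bases after the start. By the GENCODE M21 gene coordinates given below, the Asns match lies inside the gene and the Trib3 match before its start. The side of the start on which they lie thus depends on the annotation. A match is a run of letters, not a binding site that was measured.

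Asns rose and was alone among the 9 tested genes in doing so. With edgeR's quasi-likelihood test (adjusted p under 0.05), 1 of 9 was higher and 0 of 9 were lower in the mutants. Among all 14286 tested genes 6.64% were higher and 6.82% lower. At an unadjusted p under 0.05 the count was still 1, Asns itself, and DESeq2 also called 1 higher and 0 lower. The median log2 fold change over the 9 was -0.15, against 0.00 over all tested genes, with 3 values above 0 and 6 below. Apart from Asns the largest log2 fold change in size was 1.19, a negative value, in Psat1. The CPM values of the groups did not overlap for 2 of the 10 genes, Asns and Atf4, against 34.9% of all tested genes.

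**Figure D1:**
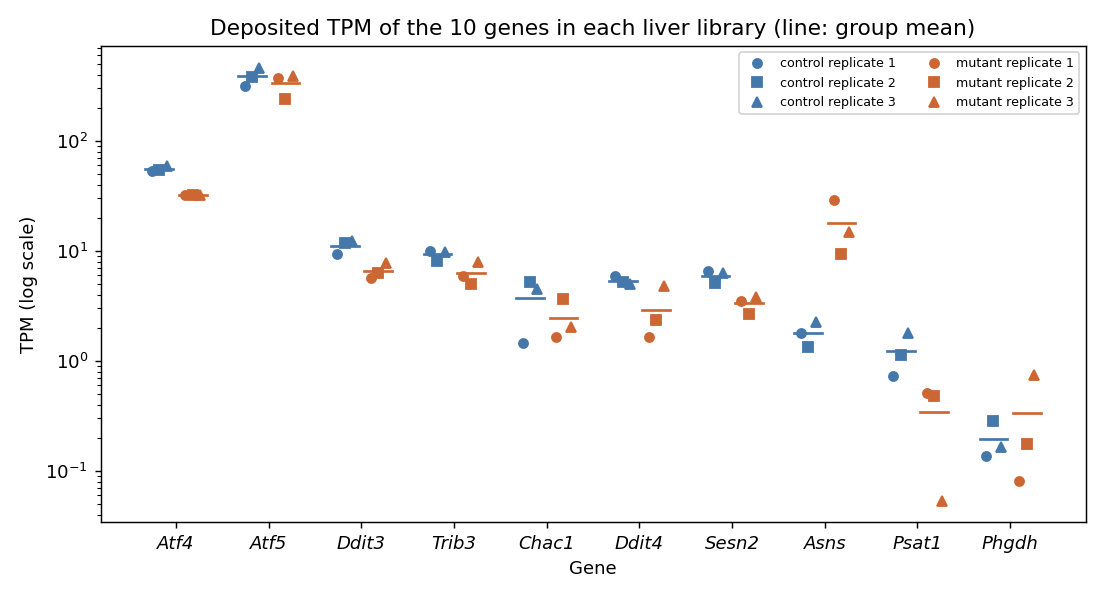
Deposited TPM (log axis) of the 10 genes in each of the 6 liver libraries, with controls in blue, mutants in orange, 1 marker shape per replicate number and a line at each group mean. Asns lies between 1.35 and 2.24 TPM in the controls and between 9.34 and 29.2 TPM in the mutants, while Atf4 lies lower in all 3 mutants on this scale.

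The libraries differed in composition, which bears on each value below. Major urinary protein (Mup) genes took 1.85% to 3.09% of the counts in the controls and 12.8% to 16.9% in the mutants, and the TMM factors were 1.145 to 1.151 in the controls and 0.863 to 0.886 in the mutants. TMM holds the typical gene level, so the median log2 fold change of all tested genes was 0.00 with it, -0.40 when counts were scaled to library totals, and -0.48 for log2(TPM + 1). Of all called genes, 49.3% were higher after TMM scaling, 6.10% at library totals and 2.86% on TPM. At library totals 1 of the 9 was higher and 2 were lower, against 2.05% and 31.6% of all genes, and on log2(TPM + 1) with limma 1 of 8 tested there was higher and 5 were lower, against 1.88% and 63.6%. Later values and counts on those scales are to be read against these medians and shares.

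Asns encodes asparagine synthetase, which makes asparagine from aspartate and glutamine, and it is a standard ATF4 target. The gene (ENSMUSG00000029752.12) lies on the minus strand at chr6:7675169-7693254 (mm10). It had 1.92, 1.44 and 2.36 CPM in control replicates 1, 2 and 3, against 45.2, 15.8 and 23.4 CPM in the mutants in the same order. All 3 mutants stood above all 3 controls, and mutant replicate 1 was the highest. The mean was 1.90 ± 0.464 CPM against 28.1 ± 15.3 CPM (SD, n = 3 each), a log2 fold change of 3.89 ± 0.40 (SE) or 14.8-fold (adjusted p = 0.00103). Behind these values stood 88.5, 64.2 and 105 estimated counts in the controls and 1729, 510 and 725 in the mutants.

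Per length, Asns was at 1.80, 1.35 and 2.24 TPM in the controls and at 29.2, 9.34 and 14.8 TPM in the mutants. Among the 14286 tested genes Asns had rank 25 by log2 fold change and rank 103 by p, and 59 genes had a log2 fold change of at least its size in either direction. The call was made in 14 of 14 alternative analyses, with log2 fold changes from 2.62 to 4.16 and adjusted p-values up to 0.00793. Without mutant replicate 1, the library with the most Asns, the log2 fold change was 3.36. Exocrine pancreas is known for high Asns, and 5 of 9 pancreatic acinar markers (Pnlip, Cpa1, Cpb1, Clps and Amy2a5) had 0 counts in all 6 libraries. The 9 markers summed to 0.0897 to 0.261 CPM in the controls against 0.161 to 0.837 CPM in the mutants. Of the 9, 0 passed the filter on low counts, and a part of pancreas tissue in the Asns values was not tested.

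Asns rose, while the mRNA of its activator Atf4 was no higher in any mutant than in the controls. The TPM ratio of Asns to Atf4 was 0.0335, 0.0249 and 0.0376 in control replicates 1 to 3 and 0.900, 0.291 and 0.462 in mutant replicates 1 to 3. This within-library ratio, which scaling between libraries cannot alter, was 15.7-fold higher in the mutants and did not overlap. A two-sided exact permutation test gave p = 0.1, the smallest value that 3 libraries against 3 allow. Because Asns itself separated the groups widely and Atf4 moved little, this outcome follows from their values. It is a description and no separate evidence.

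**Figure D2:**
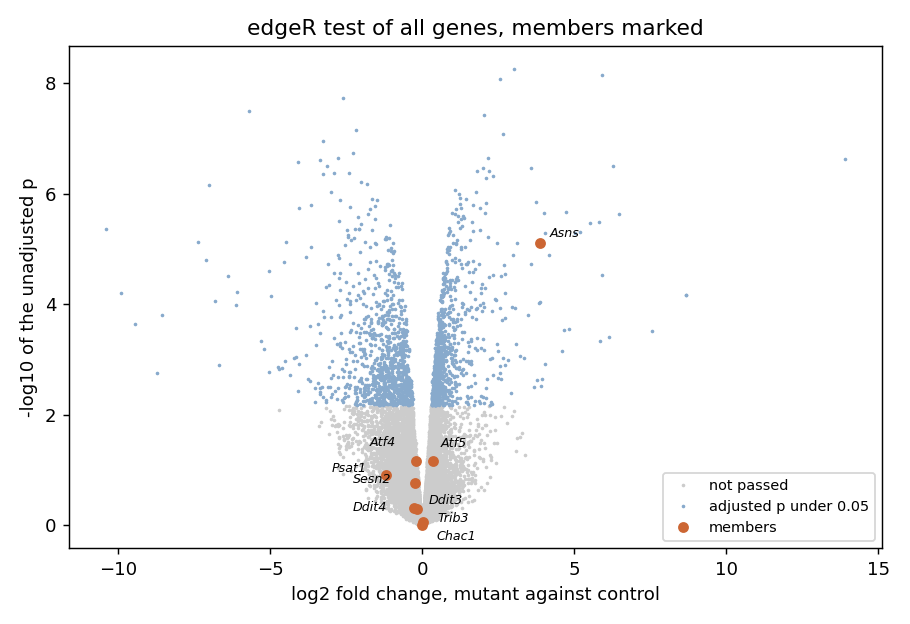
Log2 fold change (x axis, mutant against control) and -log10 of the unadjusted p (y axis) of the 14286 genes in the edgeR fit, with genes at an adjusted p under 0.05 in blue, others in grey and the 9 tested members in orange. Asns, at 3.89, is apart from the other 8, which lie between -1.19 and 0.37 in the region that did not pass.

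Among the transcription factor genes none passed the test. Atf4, the central factor of the response (ENSMUSG00000042406.8, chr15:80255184-80257541), had 53.7, 53.9 and 58.5 CPM in the controls against 46.9, 50.7 and 47.3 CPM in the mutants. All 3 mutants were below all 3 controls, by little. The log2 fold change was -0.20 ± 0.09 (adjusted p = 0.209). In TPM the gap was wider, with 53.8, 54.0 and 59.6 TPM against 32.4, 32.1 and 31.9 TPM, and Atf4 was called lower at library totals (log2 fold change -0.59, adjusted p = 0.00330) and by limma on log2(TPM + 1) (-0.78, adjusted p = 6.3e-04). The medians over all genes on those scales were -0.40 and -0.48.

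Atf5, a related factor that takes part in the mitochondrial stress response (ENSMUSG00000038539.15, chr7:44812256-44816658), was the most abundant of the 10 in both groups. It had 311, 374 and 445 CPM in the controls against 525, 373 and 564 CPM in the mutants. The groups overlapped, since mutant replicate 2 lay among the controls. Its log2 fold change was 0.37 ± 0.18 (adjusted p = 0.211) after TMM scaling and turned to -0.026 at library totals and -0.23 in the limma fit on TPM. The end of Atf5 overlaps Nup62 by 571 bases and Il4i1 by 272 bases on the opposite strand. Whether the counting used strand is not given, so reads there may be shared.

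Ddit3 encodes CHOP, a factor downstream of ATF4 linked to cell death under lasting stress (ENSMUSG00000025408.15, chr10:127290774-127296288). It had 3.98, 5.00 and 5.11 CPM in the controls against 3.53, 4.21 and 4.93 CPM in the mutants, with overlapping groups. The log2 fold change of -0.15 ± 0.22 did not pass (adjusted p = 0.707). On log2(TPM + 1) Ddit3 was called lower, at -0.67 (adjusted p = 0.00755 with limma), beside the median of -0.48 for all genes. A second Ddit3 entry (ENSMUSG00000116429.1), which overlaps the first, was at 0 counts in all libraries.

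Trib3 and Chac1 are both ATF4 and CHOP targets, and neither passed. Trib3 encodes a pseudokinase that binds ATF4 and restrains it (ENSMUSG00000032715.9, chr2:152337422-152344032). Its levels were 11.6, 9.46 and 11.2 CPM in the controls against 10.05, 9.27 and 13.8 CPM in the mutants. Mutant replicates 2 and 3 were the lowest and the highest of the 6, so the groups overlapped fully. The log2 fold change was 0.03 ± 0.18 (adjusted p = 0.929). Its sign followed the scaling, with -0.36 at library totals and -0.51 by limma on log2(TPM + 1), where it was called lower (adjusted p = 0.0312).

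Chac1 encodes an enzyme that degrades glutathione (ENSMUSG00000027313.3, chr2:119351229-119354381). It was the most variable of these genes within the control group, with 1.37, 4.89 and 4.16 CPM in the controls against 2.22, 5.42 and 2.77 CPM in the mutants. Replicate 1 was the lowest library in each group. The log2 fold change was 0.00 in size with an SE of 0.50 (adjusted p = 0.999), and it ranged from -0.49 to 0.33 when single libraries were left out. An SE of this size leaves room for changes of moderate size in either direction.

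Ddit4 and Sesn2 restrain mTORC1, the kinase complex that drives protein synthesis. Ddit4 (ENSMUSG00000020108.4, chr10:59949669-59951834) had 5.77, 5.07 and 4.79 CPM in the controls against 2.33, 3.69 and 6.96 CPM in the mutants. The controls were close together, while the mutants included both the lowest and the highest of the 6 values. Its log2 fold change of -0.27 ± 0.37 did not pass (adjusted p = 0.680), and it lay between -0.79 and 0.028 when single libraries were left out. With limma on log2(TPM + 1) it was called lower, at -0.77 (adjusted p = 0.0385), beside the all-gene median of -0.48.

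Sesn2, which also senses leucine (ENSMUSG00000028893.8, chr4:132492032-132510501), had 14.2, 10.9 and 13.3 CPM in the controls against 11.02, 9.17 and 12.2 CPM in the mutants. The groups overlapped. Its log2 fold change was -0.24 ± 0.16 (adjusted p = 0.370) and did not pass. At library totals it was called lower (-0.64, adjusted p = 0.0202), as it was by limma on log2(TPM + 1) (-0.68, adjusted p = 0.00822).

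**Figure D3:**
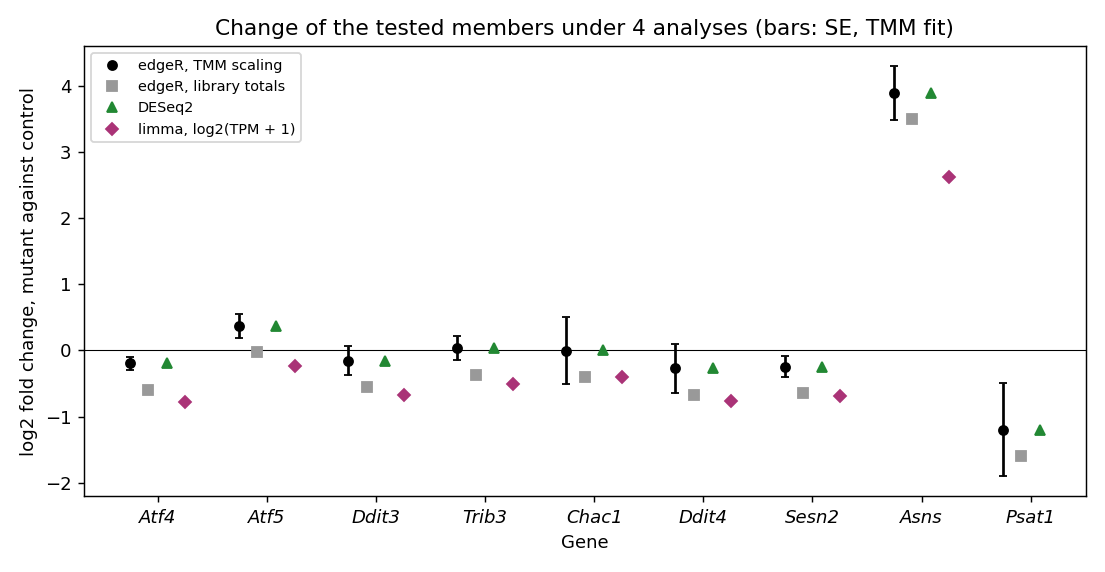
Log2 fold change, mutant against control, of the 9 tested genes under 4 analyses, namely edgeR with TMM scaling (black, bars are SE), edgeR at library totals (grey), DESeq2 (green) and limma on log2(TPM + 1) (magenta, with no value for Psat1, which did not pass the TPM filter). Asns is far above 0 under all 4, from 2.62 to 3.89, whereas Atf5 and Trib3 change sign with the scaling.

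Psat1 and Phgdh, the serine synthesis enzymes, were low in every library, and neither passed. PHGDH takes the first step from the glycolytic intermediate 3-phosphoglycerate and PSAT1 the next. Psat1 (ENSMUSG00000024640.9, chr19:15904678-15947337) had 1.13, 1.75 and 2.79 CPM in the controls against 1.15, 1.18 and 0.129 CPM in the mutants. Mutant replicate 3, with 3.87 estimated counts, was far below the other 5 libraries, while mutant replicates 1 and 2 overlapped the controls. The log2 fold change of -1.19 ± 0.70 did not pass (adjusted p = 0.2995) and was -0.70 without mutant replicate 3.

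Phgdh (ENSMUSG00000053398.11, chr3:98313170-98339990) had only 6.02, 12.1 and 6.90 estimated counts in the controls and 4.30, 8.68 and 33.2 in the mutants. Mutant replicate 3, the library lowest for Psat1, was the highest for Phgdh. With no filter on low counts the log2 fold change was 1.36 with an SE of 0.95, which did not pass (adjusted p = 0.461, edgeR). Psph, the enzyme of the last step, was at 3.98 ± 0.432 CPM against 3.51 ± 1.01 CPM (controls and mutants, SD, n = 3 each), a log2 fold change of -0.18 ± 0.27 (adjusted p = 0.722). Psph was added to the named genes after its values were seen.

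In TPM, which allows levels of different genes to be compared, Asns went from rank 8 among the 10 in the controls to rank 3 in the mutants. The order in the controls was Atf5 (389 ± 72.9 TPM), Atf4 (55.8 ± 3.28), Ddit3 (11.1 ± 1.52), Trib3 (9.27 ± 1.01), Sesn2 (5.96 ± 0.797), Ddit4 (5.35 ± 0.482), Chac1 (3.75 ± 2.01), Asns (1.80 ± 0.447), Psat1 (1.22 ± 0.550) and Phgdh (0.194 ± 0.0777) (TPM, SD, n = 3 each). Neighbours overlapped in their library values from Ddit3 to Trib3 and from Sesn2 through Psat1. In the mutants Asns, at 17.8 ± 10.3 TPM, stood between Atf4 (32.2 ± 0.248 TPM) and Ddit3 (6.59 ± 1.08 TPM) and overlapped neither.

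The 5 genes whose pattern over the 6 libraries was most like that of Asns were Enho, Zbtb16, Gm3734, Hamp and Mup13. Likeness was the root mean square difference of gene-centred log2 CPM, which was 0.378 for Enho, 0.490 for Zbtb16, 0.609 for Gm3734, 0.633 for Hamp and 0.653 for Mup13. Enho, which encodes the secreted peptide adropin, was at 3.35 ± 1.22 CPM in the controls against 29.3 ± 9.53 CPM in the mutants. Hamp, the gene of the iron hormone hepcidin, was at 51.2 ± 23.5 CPM in the controls against 427 ± 211 CPM in the mutants. Mup13 belongs to a family of near-identical genes, so its share of the reads is uncertain. The genes were picked for this likeness, so their rise is a description.

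Tested genes near Asns on the chromosome were not called with it. The nearest tested gene, C1galt1, lies 151588 bases away, and the genes nearer than it had 0 counts in every library. Of 41 genes within 1000000 bases on either side, 9 were tested, with log2 fold changes from -0.68 to 0.94 and a median of 0.00. None was called by edgeR or DESeq2, and 0 had an unadjusted p under 0.05. This window was chosen after the values of Asns were seen.

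The wider set of ATF4 and CHOP targets moved in both directions. Of 23 tested, 3 were higher and 6 lower, with a median log2 fold change of -0.17, against 0.00 over all genes. At library totals 2 were higher and 10 lower (31.6% of all genes lower). On log2(TPM + 1) the counts were 1 and 11 of 19 (63.6% of all genes lower). Cth, the transsulfuration enzyme that releases cysteine, rose from 139 ± 4.63 to 469 ± 192 CPM (SD, n = 3 each), a log2 fold change of 1.76 ± 0.28 (adjusted p = 0.00646). Slc38a2, a neutral amino acid transporter, rose from 65.9 ± 8.14 to 134 ± 28.8 CPM (1.02 ± 0.17, adjusted p = 0.00794), and was at 0.40 and not called in the limma fit on log2(TPM + 1) (adjusted p = 0.106). Gpt2, an alanine aminotransferase, rose by 0.50 on the log2 scale after TMM scaling and was at -0.10 in the limma fit on TPM.

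The 6 that fell have varied functions. Gdf15, a stress hormone, fell from 19.1 ± 7.43 to 2.86 ± 0.659 CPM (-2.74 ± 0.31, adjusted p = 0.00152). Atf3, a stress-induced factor, fell from 8.29 ± 5.94 to 0.879 ± 0.176 CPM (-3.23 ± 0.51, adjusted p = 0.00628), and its log2 fold change was -2.46 without control replicate 2. Fgf21, a liver hormone, fell from 15.2 ± 4.21 to 6.33 ± 1.67 CPM (-1.26 ± 0.25, adjusted p = 0.0154), a call lost without mutant replicate 1 (adjusted p = 0.0611). The other 3 lower calls were Aldh18a1, an enzyme of proline synthesis (log2 fold change -2.51), Vldlr, a lipoprotein receptor (-2.20), and Slc7a1, a cationic amino acid transporter (-1.78). With each of the 6 libraries left out in turn, the Aldh18a1 call was lost in 4 fits, the Vldlr call in 5 and the Slc7a1 call in 6. Gpt2, Fgf21 and these 3 were named after their values were seen. With single libraries left out, 2 to 5 targets were lower and 2 or 3 higher, the fewest lower being 2 without mutant replicate 1.

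Some markers of non-parenchymal cells fell. The 8 stellate cell markers summed to 333 to 343 CPM in the controls against 131 to 168 CPM in the mutants, and 7 of 8 were called lower. The 8 markers of monocyte-derived macrophages summed to 153 to 200 CPM and 83.2 to 87.0 CPM, with 5 of 8 lower, and the 8 Kupffer cell markers to 240 to 339 CPM and 118 to 225 CPM, with 2 of 8 lower. For the 10 hepatocyte markers the sums were 82897 to 93620 CPM and 95332 to 104559 CPM, with 5 of 10 higher. That count depended on the scaling. At library totals 2 of the 10 were called higher and 2 lower, and on log2(TPM + 1) 2 and 5. Among all genes 31.6% and 63.6% were lower on those scales. There 8 and 8 stellate cell markers and 6 and 6 Kupffer cell markers were called lower. The 7 endothelial markers summed to 105 to 192 CPM and 79.3 to 123 CPM (2 of 7 lower), the biliary markers to 62.9 to 91.6 CPM and 32.0 to 47.7 CPM (1 higher and 1 lower of 5 tested), and the T, NK and B cell markers to 3.37 to 5.07 CPM and 2.48 to 2.90 CPM (0 of 6 called by edgeR or DESeq2, 0 at an unadjusted p under 0.05). Of the 5 tested biliary markers 3 had a log2 fold change above 0, with a median of 0.07, although their sum was lower. Spp1 is in both the biliary and the monocyte-derived macrophage list. Neutrophil markers summed to 2.98 to 4.09 CPM and 0.677 to 1.07 CPM (2 of 2 tested lower). Adipocyte markers, with Lep at 0 throughout, summed to 9.69 to 23.6 CPM and 0.0620 to 0.193 CPM (1 of 1 tested lower). Of the 5 adipocyte markers 3 stayed below 0.1 CPM in every library, so that sum rests on few genes. The erythroid markers were at 394 to 602 CPM and 365 to 640 CPM, with 1 of 5 higher. With single libraries left out the lower calls stayed at 7 for stellate cells, and were 2 to 4 for monocyte-derived macrophages, 0 to 4 for Kupffer cells, 0 to 4 for endothelium (0 in 5 of 6 fits, 4 without control replicate 2) and 0 or 1 for neutrophils. In whole liver, fewer cells of a type and less RNA per cell cannot be told apart. The part of these cells in the decreases of Gdf15, Atf3, Vldlr and Slc7a1 was not tested.

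**Figure D4:**
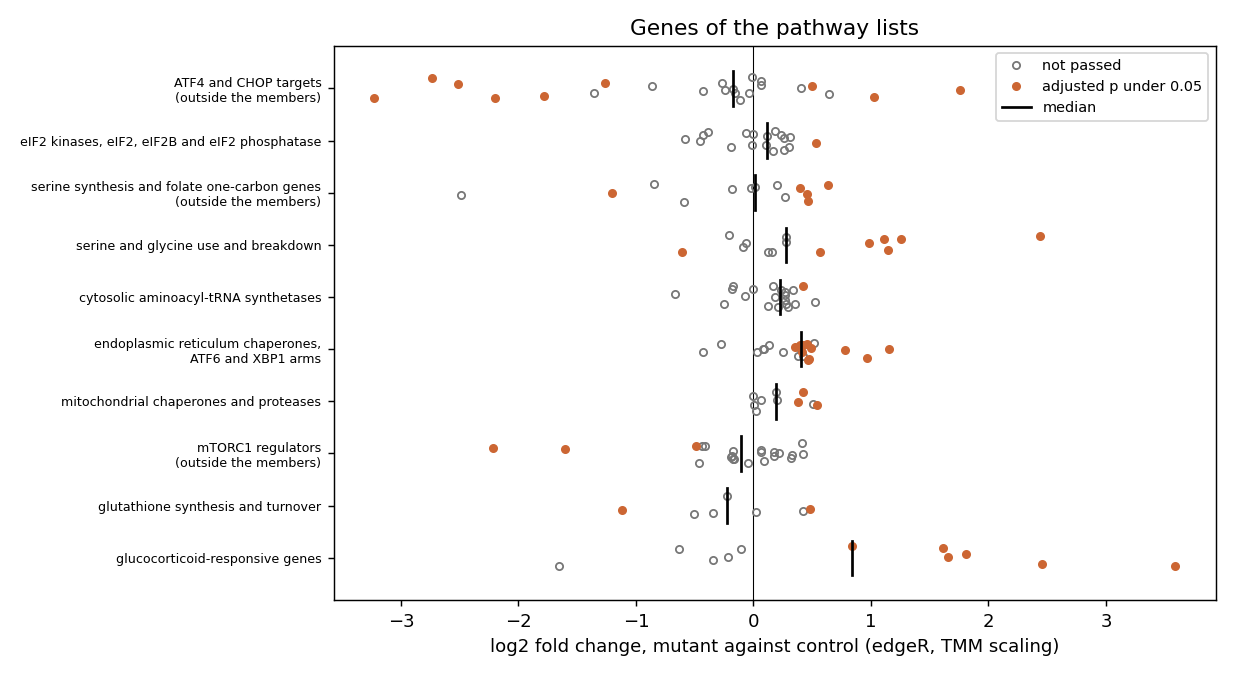
Log2 fold change (x axis, edgeR with TMM scaling) of each tested gene in 10 pathway lists (rows), filled where the adjusted p was under 0.05, with a black bar at each list's median. Medians lie between -0.23 (glutathione) and 0.84 (glucocorticoid-responsive genes), and called genes of the ATF4 and CHOP target list lie on both sides of 0.

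Upstream of ATF4, the mRNA of the eIF2 genes was read, which says nothing of phosphorylation. Of 18 tested, 1 was higher and 0 lower (2 higher and 2 lower at an unadjusted p under 0.05, and 1 each way with DESeq2), with a median log2 fold change of 0.11. At library totals 0 were higher and 8 lower, and on log2(TPM + 1) 0 and 13, beside 31.6% and 63.6% lower among all genes. The gene called was Eif2b1, a subunit of the eIF2 exchange factor, from 16.4 ± 0.767 to 23.7 ± 2.45 CPM (0.53 ± 0.12, adjusted p = 0.0257). It was at -0.066 in the limma fit on TPM, and it passed in 1 of 6 fits with a library left out, the one without mutant replicate 2. The kinase gene Eif2ak3 (PERK), at 21.3 ± 3.46 CPM in the controls against 14.2 ± 2.17 CPM in the mutants, did not pass (-0.59 ± 0.17, adjusted p = 0.0541). It was called lower with DESeq2 (adjusted p = 0.0201), with no filter (0.0228), without control replicate 1 (0.0495), at library totals (0.00499) and on log2(TPM + 1) (0.00316). Eif2ak4 (GCN2), at -0.46, did not pass (adjusted p = 0.108) and was called lower at library totals (0.00722) and on log2(TPM + 1) (0.00496).

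Several genes that break down or use serine and glycine rose, among them the serine dehydratase gene Sds. Of 14 tested, 6 were higher and 1 lower, with a median log2 fold change of 0.28. Sds, serine dehydratase, rose from 32.2 ± 5.57 to 175 ± 84.2 CPM (2.44 ± 0.35, adjusted p = 0.00413). Agxt, which transfers amino groups to glyoxylate to make glycine and also acts on serine, rose from 114 ± 5.08 to 272 ± 39.7 CPM (1.25 ± 0.12, adjusted p = 7.98e-04). Gnmt, which methylates glycine, rose by 1.11 ± 0.12 on the log2 scale, and Sdsl, a relative of Sds, by 1.14 ± 0.18. Sptlc2, a subunit of the enzyme that joins serine to a fatty acid for sphingolipids, fell (-0.61 ± 0.15, adjusted p = 0.0341), a call lost in 4 of 6 fits with a library left out, and was named after its value was seen. The count higher was 5 to 7 with single libraries left out. At library totals 4 were higher and 3 lower, and on log2(TPM + 1) 4 and 6, beside 31.6% and 63.6% lower among all genes.

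In the folate one-carbon list, 4 of 13 were higher, with a median log2 fold change of 0.01. Aldh1l1, which oxidises formyl folate, was at 554 ± 4.27 CPM in the controls against 861 ± 165 CPM in the mutants (0.64 ± 0.14, adjusted p = 0.0206). At library totals it was at 0.24 (adjusted p = 0.201) and in the limma fit on TPM at 0.022 (adjusted p = 0.904), called in neither. The folate enzymes Shmt1 (0.39) and Mthfd1 (0.46) and the carrier Slc25a32 (0.47) were the others called higher, and these 3 turned to -0.21, -0.14 and -0.12 in the limma fit on TPM. The higher calls fell to 0 without control replicate 1, 2 or 3 or mutant replicate 1, to 1 without mutant replicate 3, and were 4 without mutant replicate 2. They were 0 at library totals and on log2(TPM + 1). On those scales 2 of 13 and 6 of 11 were lower, beside 31.6% and 63.6% of all genes.

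Cytosolic tRNA synthetases, many of them ATF4 targets, gave 1 higher and 0 lower of 20, with a median log2 fold change of 0.22 (7 higher and 1 lower at an unadjusted p under 0.05, 3 and 1 with DESeq2). The gene was Eprs (0.42 ± 0.12, adjusted p = 0.0495), which was at -0.17 in the limma fit on TPM. At library totals 0 were higher and 4 lower, and on log2(TPM + 1) 0 and 13, beside 31.6% and 63.6% lower among all genes. Eprs was called in 1 of 6 fits with a library left out, the one without mutant replicate 2.

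Of the chaperone genes of the endoplasmic reticulum and the genes of its ATF6 and XBP1 arms, 11 of 22 tested rose and 11 did not pass. There were 11 higher and 0 lower, with a median log2 fold change of 0.41 (15 higher and 1 lower at an unadjusted p under 0.05, 13 and 0 with DESeq2). Herpud1, which serves in the disposal of misfolded proteins, rose from 232 ± 26.2 to 515 ± 141 CPM (1.15 ± 0.18, adjusted p = 0.0067). Sdf2l1 rose from 10.1 ± 2.11 to 19.7 ± 2.94 CPM (0.97 ± 0.18, adjusted p = 0.0130), a call lost without control replicate 1 (adjusted p = 0.0503) and with limma on log2(TPM + 1) (0.37, adjusted p = 0.0738). The chaperone Hsp90b1 (0.47) and the folding enzyme Pdia3 (0.42) turned to -0.13 and -0.18 in the limma fit on TPM. At library totals 2 were higher and 3 lower, with a median of 0.01 beside -0.40 for all genes. On log2(TPM + 1) the counts were 1 and 8, with a median of -0.20 beside -0.48. The shares lower among all genes were 31.6% and 63.6%. Without control replicates 1, 2 and 3 in turn the higher calls were 3, 4 and 6, and without mutant replicates 1, 2 and 3 they were 6, 9 and 7.

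Mitochondrial chaperones and proteases gave 3 higher and 0 lower of 10, with a median log2 fold change of 0.20 (4 and 0 at an unadjusted p under 0.05 and with DESeq2). They were Hspd1 (0.42), Clpp (0.54) and Hspa9 (0.38), and in the limma fit on TPM these were at -0.18, -0.055 and -0.22. At library totals 0 were higher and 4 lower, and on log2(TPM + 1) 0 and 6, beside 31.6% and 63.6% lower among all genes. The higher calls were 0 without control replicate 1, 1 without control replicate 2, control replicate 3 or mutant replicate 1, and 3 without either of the other mutants.

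Beside Ddit4 and Sesn2, the other mTORC1 regulators gave 0 higher and 3 lower of 22, with a median log2 fold change of -0.11 (3 higher and 4 lower at an unadjusted p under 0.05, 0 and 3 with DESeq2). Rragd, a GTPase that brings mTORC1 to the lysosome, was at 3.29 ± 0.626 CPM in the controls against 1.08 ± 0.408 CPM in the mutants (-1.61 ± 0.37, adjusted p = 0.0269). Ddit4l, a paralog of Ddit4, was at 2.36 ± 1.62 CPM in the controls against 0.506 ± 0.180 CPM in the mutants (-2.22 ± 0.57, adjusted p = 0.0377). Sesn3, a paralog of Sesn2, was at 34.6 ± 2.82 CPM in the controls against 24.7 ± 2.96 CPM in the mutants (-0.49 ± 0.13, adjusted p = 0.0377). All 3 calls were lost without control replicate 1, control replicate 2 or mutant replicate 1. Among the other fits with a library left out, Rragd was called in all 3, Ddit4l without control replicate 3 and Sesn3 without mutant replicate 3. At library totals 0 were higher and 9 lower (31.6% of all genes lower). On log2(TPM + 1) the counts were 0 and 12 of 20 (63.6% of all genes lower).

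Glutathione synthesis and turnover, to which Chac1 is linked, gave 1 higher and 1 lower of 7, with a median log2 fold change of -0.23. At library totals and on log2(TPM + 1) 0 were higher and 5 lower, beside 31.6% and 63.6% lower among all genes. Gclc, the catalytic subunit of the rate-limiting enzyme of glutathione synthesis, fell from 466 ± 147 to 215 ± 20.9 CPM (-1.12 ± 0.20, adjusted p = 0.0116). Oplah, which recycles 5-oxoproline to glutamate, was higher by 0.48 ± 0.12 (adjusted p = 0.0371). It was at -0.10 in the limma fit on TPM and passed in 1 of 6 fits with a library left out, the one without control replicate 2.

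Genes that respond to glucocorticoids, which also act on amino acid breakdown in liver, gave 6 higher and 0 lower of 11, with a median log2 fold change of 0.84 (6 and 2 at an unadjusted p under 0.05, 6 and 1 with DESeq2). Fkbp5, a chaperone of the glucocorticoid receptor, rose from 20.1 ± 3.91 to 110 ± 37.0 CPM (2.46 ± 0.26, adjusted p = 0.00103). Zbtb16, a transcription factor gene also in the group most like Asns, rose from 2.49 ± 0.562 to 30.1 ± 14.9 CPM (3.59 ± 0.42, adjusted p = 0.00171). Per1 rose by 1.61 ± 0.24 and Klf9 by 0.84 ± 0.13 on the log2 scale. The 6 genes called higher were the only ones of the 11 with a log2 fold change above 0. The median is thus the value of Klf9, the lowest of these 6, and does not describe the genes that were not called. The count higher was 5 without control replicate 3 and 6 without any 1 of the other libraries. It was 6 at library totals and 5 on log2(TPM + 1), each with 3 lower, beside 31.6% and 63.6% lower among all genes. Klf9 was not called on log2(TPM + 1) (0.23, adjusted p = 0.205).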

How the data were processed

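Liver RNA of 3 control and 3 mutant libraries was sequenced as paired 150 base reads from poly(A) libraries, per the labels' protocols. Per the submitters' processing notes, cutadapt, STAR and build mm10 were used. The sources used here name no gene counter, annotation release or strandedness. The authors deposited estimated counts and TPM for 55487 genes. The deposited estimated counts equal TPM times a fixed gene length and a library factor (largest relative deviation 5.7e-10), so they approximate read numbers. Library totals were 35847386 to 43162557. No labels say that libraries are separate animals, so p-values measure the spread between libraries.

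Estimated counts were rounded and tested with edgeR 4.0.16 (R 4.3.3): filterByExpr, TMM, quasi-likelihood test, Benjamini-Hochberg adjustment over 14286 genes, calls at an adjusted p under 0.05. CPM are TMM-scaled, ± SD, and errors of log2 values are SE. Alternatives were RLE factors, library totals, no filter, DESeq2 1.42.0, a replicate block, each library left out, and limma 3.58.1 on log2(TPM + 1) or log2(TPM + 0.1), with TPM of at least 1 in 3 libraries or no filter. The procedure was tested on simulated data, where it recovered 53.5% of 101 genes changed 2-fold and 80.4% of 92 changed 4-fold. Of the 141 calls made there, 13 were false. Coordinates are from GENCODE M21 (mm10). The members and the 10 pathway and 11 marker lists were chosen with earlier results of these data known. Named genes were the members, Rxra, up to 4 genes per list with the smallest p, and the 5 most like Asns. Others are said to be named after their values were seen. 1 gene of the folate list is not reported here.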

Additional observations from a re-analysis of the deposited data

How the results depend on the processing

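Asns kept its call under all 14 alternatives, and 1 member was called higher in each. The calls of other members depended on the scaling. Calls over all genes went from 1923 to 4801 at library totals and to 7579, 7526 and 6581 with limma (pseudocount 1, pseudocount 0.1, no filter), and to 882 to 1514 with single libraries left out. Members called lower went from 0 to 2 at library totals and to 5, 5 and 3 with limma. Over all pathway lists, 36 higher and 12 lower calls became 14 and 51 at library totals, 11 and 83, 11 and 83, and 7 and 76 with limma, and 18 to 34 and 4 to 9 with single libraries left out.

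At library totals the log2 fold changes were -0.59 for Atf4, -0.026 for Atf5, -0.36 for Trib3, -0.64 for Sesn2, -0.0045 for Shmt1 and -0.021 for Hspa9. With limma, in the same order of pseudocount 1, 0.1 and no filter, they were -0.78, -0.79 and -0.78 for Atf4, -0.23, -0.23 and -0.23 for Atf5, -0.67, -0.75 and -0.67 for Ddit3, -0.51, -0.57 and -0.51 for Trib3, and -0.68, -0.82 and -0.68 for Sesn2. Ddit4 was at -0.77 and -0.98 with the TPM filter. Genes whose positive log2 fold change turned negative with limma were Rxra (-0.20), Eif2b1 (-0.066 and -0.071), Shmt1 (-0.21), Mthfd1 (-0.14 and -0.15), Eprs (-0.17), Hsp90b1 (-0.13), Pdia3 (-0.18), Hspd1 (-0.18), Clpp (-0.055 and -0.056), Oplah (-0.10 and -0.11), Slc25a32 (-0.12 and -0.13), Hspa9 (-0.22) and Gpt2 (-0.10). Chac1, near 0, was at 0.0018 with no filter. With single libraries left out Trib3 ranged from -0.16 to 0.14, Chac1 from -0.49 to 0.33, Ddit4 from -0.79 to 0.028 and Psph from -0.34 to 0.039.

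Same-numbered libraries did not deviate together (correlations 0.017, -0.003 and 0.063 for numbers 1, 2 and 3). The labels do not say what a number marks, and such correlations cannot settle whether same-numbered libraries shared a batch. With the replicate number as a block 1558 genes were called, members stayed at 1 higher and 0 lower, and Chac1 was at 0.078. The highest estimated count in any library was 124 for Psat1 and 33.2 for Phgdh, and mutant replicate 3, with 3.87 for Psat1, stood apart from the others.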
